A study of Mus musculus with 6 samples.

Results

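The genes described here encode the nuclear subunits of the mitochondrial respiratory chain and of ATP synthase, measured in the mouse embryonic stem cell line R1, which is male and of 129X1 x 129S1 background. The rule that chose them uses gene symbols and no measured value, though it was set with earlier results of these data known. It takes symbols of the Nduf a, b, c, s and v series (complex I), Sdha to Sdhd (complex II), and Uqcr and Cyc1 (complex III). It also takes Cox4 to Cox8 (complex IV) and Atp5 (ATP synthase), and leaves out pseudogene symbols throughout. This gave 79 of the 22180 genes that have a feature with a single symbol on the array: 33 of complex I, 4 of complex II, 8 of complex III, 17 of complex IV and 17 of ATP synthase. Genes of the mitochondrial genome were left out. The 79 genes have 88 such features, and the brightest feature over the 6 arrays stands for each gene.

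Both groups were grown on gelatin with fetal bovine serum and leukemia inhibitory factor, and the labels name no feeder cells. Untreated cells (3 arrays) received no addition, and treated cells (3 arrays) received 0.74 mM ascorbic acid 2-glucose (AA2G; 250 µg/ml), a stable derivative of vitamin C, during 3 days. The cells are 1 established line, and the design text calls the 3 replicates of a group independent without saying how they were separated, so the p-values measure only the spread between these samples. The labels place the cells in the inner cell mass, and the design asks what AA2G changes in their transcriptome. The log2 values of the arrays had medians of 5.06 to 5.10. Of 12 embryonic stem cell markers, 12 were measured, and their mean level was between 9.71 and 9.74 on untreated arrays and between 9.62 and 9.64 on AA2G arrays. Of 12 measured muscle markers the mean level was 5.32 to 5.38 on untreated arrays and 5.31 to 5.44 on AA2G arrays. It was 4.76 to 4.86 and 4.72 to 4.85 for 9 of 10 fibroblast feeder markers, and 5.61 to 5.71 and 5.62 to 5.68 for 10 primitive endoderm markers. The files hold no detection calls, so dim values cannot be told from background.

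Complexes I and II pass electrons from NADH and succinate to ubiquinone, complex III passes them on to cytochrome c, and complex IV hands them to oxygen. Complexes I, III and IV pump protons out of the matrix, and ATP synthase uses the returning protons to make ATP. Most subunits are encoded in the nucleus, and several of complex IV exist as a ubiquitous form and a paralogue used in muscle, lung or testis. Embryonic stem cells in serum and LIF use glycolysis as well as respiration. The nuclear factors NRF1, GABP, YY1 and the estrogen-related receptors are known regulators of subunit genes.

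RefSeq (GRCm38.p6) promoters, from 250 bases before to 50 bases after a gene's start, were matched by Entrez Gene identifier for 64 of the 79 genes, with the first listed start where a gene has several. Each was searched on both strands for CGCATGCG (NRF1), CCGGAAG (GABP and other ETS factors), AAGATGGCG (YY1) and TCAAGGTCA (estrogen-related receptors). The NRF1 letters were in 8 of the 64 (12.5%, against 2.60% of the 16918 genes measured here that have a listed promoter and 1.91% of all 27025 genes that have one), the GABP letters in 16 (25%, against 11.7% and 9.12%), the YY1 letters in 5 (7.81%, against 2.00% and 1.495%) and the receptor letters in 2 (3.12%, against 0.325% and 0.407%). At least 1 motif was in 26 of the 64 promoters, against 2650 of the 16918 and 3301 of the 27025, and matches of different motifs overlapped in 0 of them. The subunit promoters held a median of 19 CpG dinucleotides, against 13 for the genes measured and 7 for all listed promoters, and ranged from 2 (Cox8b) to 43 (Atp5j). A match of letters is a description and shows no binding. The first 6 sequences were picked to show each motif and each complex, and Cox7b with its testis paralogue Cox7b2 because that paralogue had the largest log2 fold change of the 79 genes. Capitals mark the matches, and the last pair has none. The Ndufa8 promoter lies at chr2:36049289-36049588, minus strand. That of Ndufs7 lies at chr10:80249199-80249498, plus strand. The Sdhd promoter lies at chr9:50603800-50604099, minus strand. That of Uqcrc1 lies at chr9:108936398-108936697, plus strand. The Cox6a1 promoter lies at chr5:115348909-115349208, minus strand. That of Atp5l lies at chr9:44920693-44920992, minus strand. The Cox7b promoter lies at chrX:106015450-106015749, plus strand. That of Cox7b2 lies at chr5:71548156-71548455, minus strand.
Ndufa8: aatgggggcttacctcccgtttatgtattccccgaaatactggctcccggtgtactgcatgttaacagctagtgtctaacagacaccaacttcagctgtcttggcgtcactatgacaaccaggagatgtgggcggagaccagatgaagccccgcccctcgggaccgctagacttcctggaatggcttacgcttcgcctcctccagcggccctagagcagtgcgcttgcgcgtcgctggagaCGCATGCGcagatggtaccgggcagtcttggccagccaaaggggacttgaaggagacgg
Ndufs7: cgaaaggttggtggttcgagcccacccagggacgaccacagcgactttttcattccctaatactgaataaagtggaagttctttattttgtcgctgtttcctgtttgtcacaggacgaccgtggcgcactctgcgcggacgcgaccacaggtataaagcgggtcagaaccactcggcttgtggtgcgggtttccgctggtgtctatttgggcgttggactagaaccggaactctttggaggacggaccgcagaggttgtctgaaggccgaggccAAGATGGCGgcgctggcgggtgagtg
Sdhd: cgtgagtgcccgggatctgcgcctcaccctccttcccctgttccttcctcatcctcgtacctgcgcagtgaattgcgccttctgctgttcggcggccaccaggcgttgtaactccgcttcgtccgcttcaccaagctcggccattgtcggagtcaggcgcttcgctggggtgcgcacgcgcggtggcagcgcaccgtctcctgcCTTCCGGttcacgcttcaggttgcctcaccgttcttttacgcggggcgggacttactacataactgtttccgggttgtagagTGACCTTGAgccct
Uqcrc1: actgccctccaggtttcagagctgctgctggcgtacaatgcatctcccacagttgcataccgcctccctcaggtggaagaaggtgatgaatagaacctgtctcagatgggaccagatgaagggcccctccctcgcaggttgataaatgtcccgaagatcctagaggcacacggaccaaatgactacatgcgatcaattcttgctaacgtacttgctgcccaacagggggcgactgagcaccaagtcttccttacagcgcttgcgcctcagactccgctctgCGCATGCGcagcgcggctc
Cox6a1: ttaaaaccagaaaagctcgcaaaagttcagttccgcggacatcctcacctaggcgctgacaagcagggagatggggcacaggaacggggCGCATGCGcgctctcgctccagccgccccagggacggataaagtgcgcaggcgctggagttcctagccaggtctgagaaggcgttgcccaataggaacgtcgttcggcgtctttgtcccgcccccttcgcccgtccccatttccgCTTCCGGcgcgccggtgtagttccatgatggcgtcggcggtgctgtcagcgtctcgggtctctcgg
Atp5l: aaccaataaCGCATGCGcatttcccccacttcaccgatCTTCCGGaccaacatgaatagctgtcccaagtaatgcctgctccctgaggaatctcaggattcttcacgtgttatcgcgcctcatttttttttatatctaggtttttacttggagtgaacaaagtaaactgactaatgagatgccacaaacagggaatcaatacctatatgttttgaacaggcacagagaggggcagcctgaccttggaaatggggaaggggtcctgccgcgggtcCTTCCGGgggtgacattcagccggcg
Cox7b: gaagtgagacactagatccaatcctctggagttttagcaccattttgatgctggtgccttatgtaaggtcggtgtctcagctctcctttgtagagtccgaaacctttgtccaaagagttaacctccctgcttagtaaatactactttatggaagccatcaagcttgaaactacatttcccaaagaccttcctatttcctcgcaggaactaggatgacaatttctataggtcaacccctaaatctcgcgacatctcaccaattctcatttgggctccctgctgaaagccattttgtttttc
Cox7b2: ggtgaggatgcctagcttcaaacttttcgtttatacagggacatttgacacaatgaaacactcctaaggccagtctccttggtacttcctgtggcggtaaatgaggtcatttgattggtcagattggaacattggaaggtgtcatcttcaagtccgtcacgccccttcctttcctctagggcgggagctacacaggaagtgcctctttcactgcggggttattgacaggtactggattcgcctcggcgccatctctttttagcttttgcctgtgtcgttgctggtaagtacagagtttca

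None of the 79 subunit genes changed past the threshold with AA2G, and most values lay slightly above 0. The largest was that of Cox7b2, a testis form of a complex IV subunit, at 0.44 ± 0.13 on the log2 scale (SE), and the most negative was that of Ndufa4l2, at -0.10 ± 0.34, which ran from -0.46 to 0.20 with 1 array left out. In the limma fit over 23521 features, the count past a Benjamini-Hochberg adjusted p of 0.05 was 0 higher and 0 lower among the subunit genes, against 0.761% of all features, and the smallest adjusted p among them was 0.277. Before adjustment, limma's p was under 0.05 for 3 subunit genes with higher and 0 with lower values, where 4.66% of all features were higher and 5.06% lower. Log2 fold changes, here always AA2G minus untreated, were positive for 61 of 79 genes (77.2%) and for 47.7% of all features, with medians of 0.047 and -0.007. The shift is small: 59 of the 79 values lay within 0.1 of 0.

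For 13 subunit genes all 3 AA2G arrays lay above all 3 untreated arrays (16.5%, against 7.21% of all features), and for 2 genes all lay below (2.53%, against 8.48%). The 13 were Ndufa12, Ndufb8, Ndufb9, Ndufc2 and Ndufs8 of complex I, Cyc1 and Uqcrc1 of complex III, Cox4i2, Cox7a2l, Cox7b2 and Cox8c of complex IV, and Atp5e and Atp5o of ATP synthase. The 2 were Ndufa9 and Uqcrfs1. The 95% interval of the fold change lay inside -0.5 to 0.5 for 76 genes and reached outside it for Cox7b2, Cox6b2 and Ndufa4l2. The median half-width of these intervals was 0.18, more than the size of most values.

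**Figure D1:**
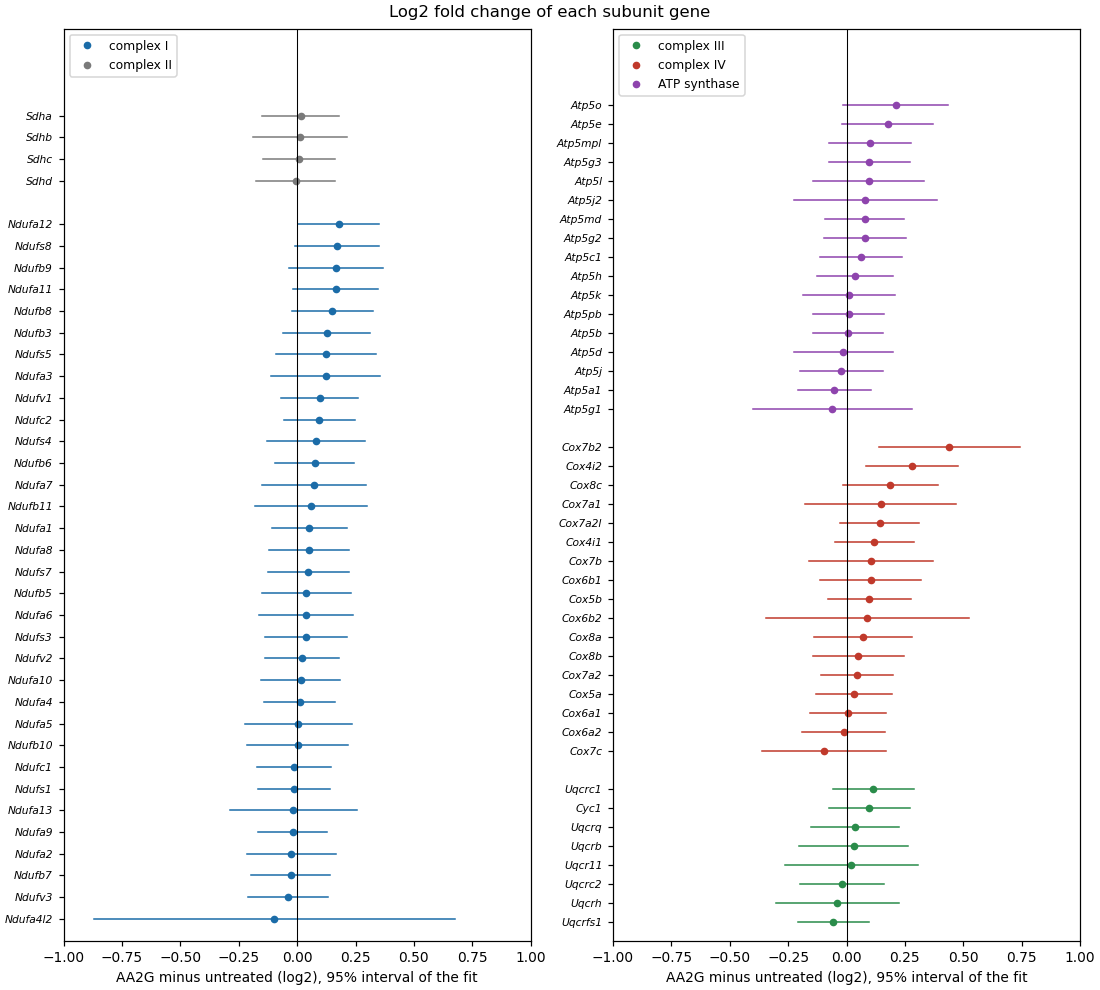
Log2 fold change (AA2G minus untreated, x axis) of each of the 79 subunit genes with the 95% interval of the limma fit, by complex. Most points sit just right of 0, with Cox7b2 at 0.44 the farthest and Ndufa4l2, at -0.10, with the widest interval.

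**Figure D2:**
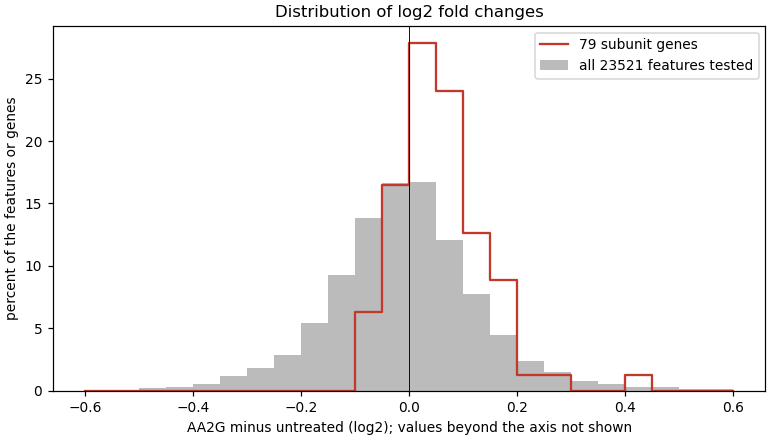
Share of features or genes (percent, y axis) in bins of the log2 fold change (x axis), for all 23521 features tested (grey) and the 79 subunit genes (red line). The subunit genes peak right of 0, with 61 of 79 positive, and the spread of all features is wider.

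The shift was uneven between arrays. Each gene's deviation from its own mean over the 6 arrays was taken, and its median over the 79 genes was -0.014, -0.068 and 0.011 on untreated arrays 1, 2 and 3 and 0.032, 0.003 and 0.044 on AA2G arrays 1, 2 and 3. Untreated replicate 2 was the lowest, and AA2G replicate 2 lay below untreated replicate 3, so the groups overlap. Over all features these medians stayed between -0.006 and 0.008. Without untreated replicate 2 the positive values numbered 51 of 79 (64.6%, against 48.5% of all features), and their median was 0.022. With any other single array left out they numbered 58 to 65. On the same arrays the embryonic stem cell markers had 10 of 12 negative values, a median of -0.097 and 0 called by limma, and 3 of them (Nanog, Pou5f1 and Klf4) below 0 with a p under 0.05 before adjustment. Of all features, 12304 of 23521 were negative, 5.06% were lower at that p and 0.761% were called. Of the 10 primitive endoderm markers limma also called 0. For 1 of them, Lama1, all AA2G arrays lay above, at 0.50 (limma adjusted p = 0.0706). For 3, Afp, Gata6 and Sox7, all lay below. Among all features 7.21% lay above and 8.48% below. The part of these markers in the shift was not tested. In whole cultures, fewer cells of a type and less RNA per cell cannot be told apart.

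**Figure D3:**
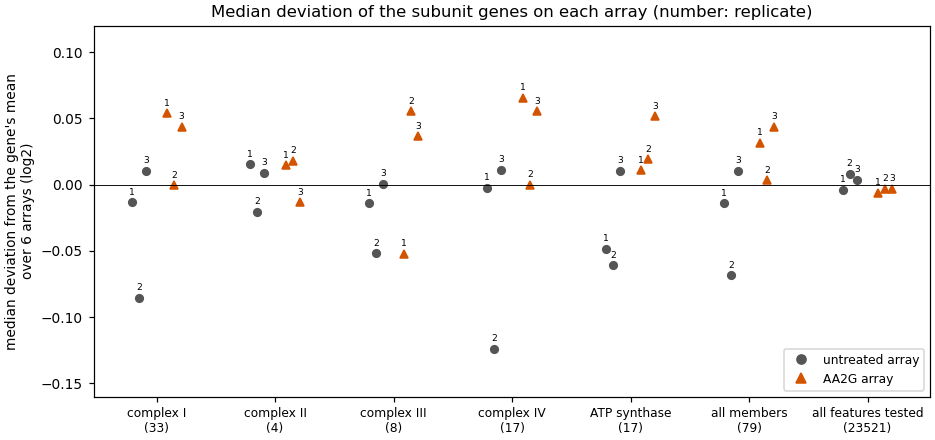
Median over the genes of each complex of their deviation from their mean over 6 arrays (log2, y axis), for each untreated (circles) and AA2G (triangles) array, with the number of genes in brackets and the replicate number above each point. Untreated replicate 2 is lowest in complexes I, II and IV and in ATP synthase, at -0.085, -0.021, -0.124 and -0.061. In complex III it lies at -0.0518, beside AA2G replicate 1 at -0.0521. All features tested stay near 0.

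Complex I oxidises NADH and is the largest of the complexes. Of its 33 genes, 25 had positive and 8 negative values, with a median of 0.047 and a range from -0.10 to 0.18, and 0 passed the test. The median was 0.020 without untreated replicate 2. The 33 include Ndufa4 and Ndufa4l2, which are described apart below. Without them, 24 of 31 values were positive and 7 negative, with a median of 0.052 and a range from -0.04 to 0.18. The 6 measured core subunits of the arm that takes up NADH, most of which bind the flavin or iron-sulfur clusters (Ndufs1, Ndufs3, Ndufs7, Ndufs8, Ndufv1 and Ndufv2), had a median of 0.042, and the 25 accessory subunits one of 0.052.

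Among the core genes, Ndufs8, which holds a pair of iron-sulfur clusters near the quinone, read 9.36, 9.20 and 9.38 on the untreated arrays and 9.53, 9.45 and 9.47 with AA2G. The groups did not overlap, and the difference was 0.17 ± 0.08 (SE; limma adjusted p = 0.536). Ndufv1, which binds NADH and the flavin, read 8.76, 8.79 and 8.78 untreated and 8.92, 8.78 and 8.92 with AA2G. AA2G replicate 2 lay among the untreated arrays, and the difference was 0.10 ± 0.07 (limma adjusted p = 0.750). Ndufs7, whose cluster passes electrons to ubiquinone, read 10.27, 10.26 and 10.32 against 10.36, 10.23 and 10.40, a difference of 0.05 ± 0.08. For Ndufs1, the largest core subunit, the readings were 9.46, 9.50 and 9.46 against 9.45, 9.50 and 9.43, with overlap and replicate 2 the highest in both groups. Its difference was -0.01 ± 0.07.

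The accessory subunits surround this core. Ndufa12, which sits beside the electron input module, had the largest positive value of complex I, with readings of 7.29, 7.11 and 7.24 untreated and 7.37, 7.41 and 7.38 with AA2G. Its groups did not overlap, and the difference was 0.18 ± 0.08 (SE; unadjusted p = 0.0469, limma adjusted p = 0.501). Its second feature was at 0.12 ± 0.08. Ndufb9, a subunit of the membrane arm, read 10.89, 10.68 and 10.93 untreated and 11.06, 10.93 and 11.00 with AA2G, where AA2G replicate 2 exceeded untreated replicate 3 by less than the second decimal shows. Ndufb8, also of the membrane arm, read 7.47, 7.43 and 7.60 against 7.61, 7.65 and 7.69, and the X-linked subunit gene Ndufa1 read 8.24, 8.18 and 8.30 against 8.30, 8.26 and 8.31, with overlap. Ndufc2, with readings of 9.06, 8.99 and 9.03 against 9.14, 9.11 and 9.12, also separated the groups, at a difference of 0.09 ± 0.07. Ndufa9, a quinone-side subunit, was the only complex I gene with all AA2G arrays below, from 9.64 on each untreated array to 9.61, 9.63 and 9.62, a difference of -0.02 ± 0.06.

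Ndufa4, named for complex I but found in complex IV in later structural work, read 10.24, 10.28 and 10.26 untreated and 10.25, 10.28 and 10.28 with AA2G. The readings were nearly the same on all arrays, at a difference of 0.01 ± 0.07 (limma adjusted p = 0.981). Its hypoxia-induced paralogue Ndufa4l2 read 8.91, 7.60 and 8.46 untreated and 8.60, 7.71 and 8.37 with AA2G. Replicate 2 was the lowest in both groups, and the spread within a group, an SD of 0.66 untreated and 0.46 with AA2G, exceeded the difference of -0.10. The difference was 0.20 without untreated replicate 1 and 0.16 without AA2G replicate 2. A fit with a block per replicate number is given in the closing section.

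Complex II, succinate dehydrogenase, belongs to the citric acid cycle as well as to the chain. All 4 of its genes overlapped between groups, as did 19829 of the 23521 features. The differences of the 4 genes ran from -0.01 to 0.01, with a median of 0.010. This median was -0.001 without AA2G replicate 1 and -0.011 with array weights. The flavoprotein gene Sdha read 10.16, 10.03 and 10.05 untreated and 10.11, 10.12 and 10.05 with AA2G. The iron-sulfur subunit gene Sdhb read 8.82, 8.58 and 8.83 against 8.74, 8.75 and 8.77. Of the membrane anchors, Sdhc read 9.51, 9.56 and 9.56 against 9.58, 9.51 and 9.56, and Sdhd 9.13, 9.26 and 9.20 against 9.19, 9.25 and 9.12. The smallest limma adjusted p of the 4 was 0.974, and their 95% intervals reached no farther than 0.212 from 0.

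Of the 8 genes of complex III, the cytochrome bc1 complex, 5 had positive and 3 negative values, with a median of 0.026, and 0 passed the test. This median turned to -0.025 without AA2G replicate 2 and was 0.080 without AA2G replicate 1 and 0.003 without AA2G replicate 3. Cytochrome c1, encoded by Cyc1, read 8.93, 8.77 and 8.93 untreated and 8.97, 8.98 and 8.97 with AA2G, and the groups did not overlap (0.10 ± 0.08, SE; limma adjusted p = 0.756). Uqcrc1, a core subunit facing the matrix, read 11.10, 11.03 and 11.11 against 11.28, 11.11 and 11.19, apart by less than the second decimal shows, at 0.12 ± 0.08 (limma adjusted p = 0.703). Its partner Uqcrc2 read 9.97, 9.81 and 9.86 against 9.93, 9.85 and 9.80, with overlap. The Rieske iron-sulfur protein gene Uqcrfs1, by contrast, read 7.37, 7.40 and 7.38 against 7.35, 7.30 and 7.33, with all AA2G arrays below, at -0.06 ± 0.07. The small subunit genes Uqcr11, Uqcrb, Uqcrh and Uqcrq lay between -0.04 and 0.03.

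Complex IV, cytochrome c oxidase, had the highest share of positive values, 15 of 17, with a median of 0.098 and 0 past the test. The 9 ubiquitous subunits had a median of 0.069. Of these, 0 separated the groups, where 7.21% of all features lay above and 8.48% below. For so few genes a count of 0 is close to that share. The other 8 genes are tissue-restricted paralogues or, in the case of Cox7a2l, a factor that joins complexes III and IV. Without untreated replicate 2 the median of the 17 was 0.020. Of the ubiquitous subunits, Cox4i1, the regulatory subunit that binds ATP, read 10.03, 9.97 and 10.11 untreated and 10.20, 10.10 and 10.17 with AA2G, with 1 untreated array above 1 AA2G array (0.12 ± 0.07, SE; limma adjusted p = 0.676). Cox5a read 9.97, 9.85 and 9.97 against 9.96, 9.95 and 9.98, and Cox5b, the zinc-binding subunit, 10.23, 10.05 and 10.21 against 10.27, 10.22 and 10.31. Both overlapped, at 0.03 ± 0.07 and 0.10 ± 0.08. Cox7c had the most negative value of the complex, -0.10 ± 0.12, with readings of 4.89, 5.00 and 4.91 against 4.65, 5.09 and 4.77. Cox7a2l read 7.84, 7.70 and 7.78 against 7.90, 7.96 and 7.88, apart between groups at 0.14 ± 0.07 (limma adjusted p = 0.602).

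The largest positive and the most negative value of the 79 genes both belonged to tissue-restricted paralogues, Cox7b2 and Ndufa4l2. Of the 8 such paralogues, Ndufa4l2 included, 6 had positive and 2 negative values. Cox4i2, a form of lung and of hypoxic cells, read 6.11, 5.84 and 6.02 untreated and 6.26, 6.26 and 6.29 with AA2G. All AA2G arrays lay above, at 0.28 ± 0.09 (SE; unadjusted p = 0.0107, limma adjusted p = 0.284). The testis form Cox7b2 read 3.07, 3.06 and 3.21 against 3.34, 3.85 and 3.46, at 0.44 ± 0.13 (unadjusted p = 0.00991, limma adjusted p = 0.277). Its level lies below 4.20, the lower quartile of the features tested, and cannot be told from background. The ubiquitous Cox7b read 9.96, 9.62 and 10.05 against 10.04, 9.92 and 9.98, with overlap (0.10 ± 0.12, and -0.02 without untreated replicate 2), and its second feature was at -0.04 ± 0.07.

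Cox8c, a further testis form, read 4.10, 4.12 and 3.97 untreated and 4.25, 4.38 and 4.13 with AA2G, apart by 0.19 ± 0.09 (SE; limma adjusted p = 0.549), also below the lower quartile of levels. Cox8b, of muscle and brown fat, read 4.09, 3.96 and 4.08 against 4.23, 4.03 and 4.02, with overlap and likewise below that quartile. The ubiquitous Cox8a read 10.97, 10.87 and 11.01 against 11.13, 10.86 and 11.07, at 0.07 ± 0.09. The testis form Cox6b2 read 8.64, 7.87 and 8.34 against 8.54, 8.15 and 8.42, and the groups overlapped (0.09 ± 0.19, and -0.12 without untreated replicate 2). As for Ndufa4l2, replicate 2 was the lowest in both groups. The muscle form Cox7a1 showed that order too, with 7.90, 7.48 and 7.93 against 7.98, 7.72 and 8.05 (0.15 ± 0.14, and -0.001 without untreated replicate 2), while the muscle form Cox6a2 read 5.24, 5.35 and 5.38 against 5.31, 5.24 and 5.39 (-0.01 ± 0.08). The ubiquitous partners Cox6a1, Cox6b1 and Cox7a2 were at 0.01 ± 0.07, 0.10 ± 0.09 and 0.04 ± 0.07. Of the 12 muscle markers measured beside these forms, limma called 0, where it called 0.761% of all features, and their median was 0.018. Before adjustment 1 of the 12 (Myh3, higher) had a limma p under 0.05, where 4.66% of all features were higher and 5.06% lower.

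**Figure D4:**
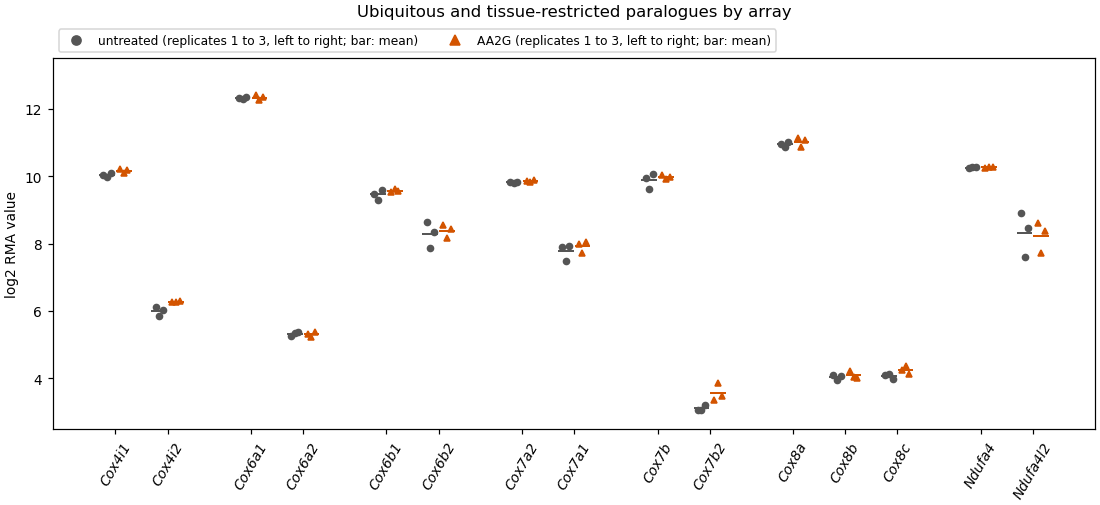
Log2 RMA value (y axis) of ubiquitous and tissue-restricted paralogues on each untreated (circles) and AA2G (triangles) array, with the mean of each group as a bar. Cox4i2, Cox7b2 and Cox8c have all AA2G arrays above the untreated ones, and Cox6b2, Cox7a1 and Ndufa4l2 have replicate 2 lowest in both groups. Different genes are measured by different probes, so heights are not compared between genes.

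Of the 17 ATP synthase genes, 13 were positive and 4 negative, with a median of 0.062, and 0 passed the test. The median was 0.025 without untreated replicate 1. The 5 measured genes of the F1 head and its central stalk had a median of 0.007, and the other 12, of the membrane part and the side stalk, one of 0.078. The catalytic subunit gene Atp5b read 12.37, 12.32 and 12.34 untreated and 12.36, 12.35 and 12.34 with AA2G, at 0.01 ± 0.07 (SE). Its partner in the head, Atp5a1, read 11.94, 11.94 and 11.91 against 11.92, 11.89 and 11.82, at -0.05 ± 0.07. Of the stalk genes, Atp5c1 read 7.09, 6.99 and 6.98 against 6.99, 7.11 and 7.14, and Atp5d 9.50, 9.29 and 9.59 against 9.44, 9.40 and 9.49, both with overlap. The brighter feature of Atp5d was at -0.01 ± 0.09 and its second at 0.03 ± 0.07.

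Atp5e, which encodes the smallest stalk subunit, read 7.98, 7.79 and 8.03 untreated and 8.08, 8.17 and 8.08 with AA2G. These arrays did not overlap, at 0.18 ± 0.08 (SE; limma adjusted p = 0.560), and its second feature was at 0.10 ± 0.09. Atp5o, which links the head to the side stalk and confers sensitivity to oligomycin, had the largest value of the complex, 0.21 ± 0.10 (limma adjusted p = 0.547), with readings of 6.98, 6.72 and 6.83 against 6.98, 7.20 and 6.98. The separation of its groups was narrow, since untreated replicate 1 and AA2G replicates 1 and 3 agree to 2 decimals. The genes of the proton-carrying c ring encode the same mature protein: Atp5g1 was at -0.06 ± 0.15, Atp5g2 at 0.08 ± 0.08 and Atp5g3 at 0.10 ± 0.08, all with overlap.

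Genes that serve the chain without being subunits were listed separately, and 109 were measured. Of these limma called 0, where it called 0.761% of all features (smallest adjusted p of the 109 = 0.122). A p under 0.05 before adjustment was reached by 0 of 14 complex I assembly genes, 3 of 30 assembly genes of the other complexes (2 higher, 1 lower), 2 of 18 genes of electron carriers and ubiquinone synthesis (1 higher, 1 lower), 0 of 19 biogenesis genes, 1 of 17 citric acid cycle genes (higher) and 1 of 11 carrier and ATP synthase regulator genes (higher), where 4.66% of all features were higher and 5.06% lower. Medians were 0.012, 0.024, 0.062, 0.003, 0.045 and -0.032 in that order. The gene with the smallest p was Slc25a31, a testis form of the ADP/ATP carrier, which read 4.38, 4.87 and 4.50 untreated and 5.09, 5.69 and 5.33 with AA2G. All AA2G arrays lay above, at 0.79 ± 0.17 (SE; limma adjusted p = 0.122). It passed with array weights (limma adjusted p = 0.0230), a setting that called 496 features in place of 179. It did not pass with any single array left out, and without AA2G replicate 3 its limma adjusted p was 0.302. Cyct, the testis form of cytochrome c, read 4.42, 4.79 and 4.54 against 4.72, 5.14 and 5.18, at 0.43 ± 0.14 (limma adjusted p = 0.339), with overlap. The mean levels of Slc25a31 and Cyct were 4.98 and 4.80, below 5.51, the median of the features tested. Without detection calls such levels cannot be placed above background. Slc25a4, another ADP/ATP carrier gene, was at -0.16 ± 0.10.

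In the other lists, Cox17, which carries copper to complex IV, was at 0.30 ± 0.09 (SE) with all AA2G arrays above, Lrpprc, which stabilises mitochondrial messenger RNAs, at 0.19 ± 0.08, Ecsit, a complex I assembly factor, at 0.16 ± 0.07 and Ndufaf3, another, at -0.15 ± 0.08. Etfdh, which feeds electrons from fatty acid oxidation into ubiquinone, was at -0.22 ± 0.08 with all AA2G arrays below. Of the biogenesis genes, Tfb2m, a mitochondrial transcription factor, was at 0.12 ± 0.08 and the coactivator gene Pprc1 at -0.10 ± 0.07. Of the citric acid cycle genes, Suclg2 was at 0.17 ± 0.07 and Pcx, which makes oxaloacetate from pyruvate, at 0.21 ± 0.09. The limma adjusted p of these genes ranged from 0.311 for Cox17 to 0.735 for Pprc1. All AA2G arrays lay above for 1 of 14 complex I assembly genes and 3 of 30 other assembly genes. They did so for 2 of 18 electron carrier and ubiquinone genes, 1 of 19 biogenesis genes and 3 of 17 citric acid cycle genes. Among the carrier and regulator genes it was 1 of 11. In that order they lay below for 1, 2, 1, 0, 1 and 1 genes. Of all features, 7.21% lay above and 8.48% below.

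A further 8 genes of the rule lie only on features with several symbols and were not counted. In a fit of all features, the brighter feature of Cox6c, shared with Gm6265, was at 0.10 ± 0.09 (SE), that of Ndufs6 and Ndufs6b at -0.02 ± 0.08, that of Ndufb2, shared with Adck2, at 0.18 ± 0.07 and that of Uqcr10, shared with Gm6293, at 0.05 ± 0.08. The smallest limma adjusted p of these features was 0.604. Second features of counted genes ranged from -0.19 (Atp5h, whose brighter feature was at 0.04) to 0.12 (Ndufa12), and none was called by limma.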

How the data were processed

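The deposited table holds log2 expression values, which the authors made with RMA; the submitters' processing notes name Affymetrix Expression Console as the software. Each sample is 1 Mouse Gene 2.0 ST array, per the labels. For software versions, annotation release and filters, nothing was given in the sources used here. RMA equalises the arrays' distributions, so a change in total RNA per cell is not seen, and dim features understate folds. All 6 columns were used.

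Features were named from the platform annotation: 23521 of 41345 have 1 symbol and were tested, 1814 have several and 16010 none listed. AA2G was compared with untreated cells with limma 3.58.1 in R 4.3.3 (lmFit, eBayes, two-sided, no covariate), with Benjamini-Hochberg adjustment over the 23521 features, called under 0.05. With 3 arrays a side, the smallest p of an exact permutation test is 0.1. Arrays give no depth, and their number limits the precision. The fit was tested on 20 simulated data sets.

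Named subunit genes were fixed by name, or had the largest value of a complex in either direction or an unadjusted p under 0.05. Genes named because their arrays do not overlap were picked after their values were seen. So were Uqcr11, Uqcrb, Uqcrh, Uqcrq, Atp5h, Myh3, and the stem cell and endoderm markers named singly. The same holds for the genes whose promoters are described and those on shared features. From each pathway list, the pair with the smallest p was named. The genes and lists were chosen with earlier results of these data known. Alternatives are under the closing section.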

Additional observations from a re-analysis of the deposited data

How the results depend on the processing

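Among the 79 subunit genes limma called 0 under every alternative run: ordinary variances or a trended robust prior, weights per array, a replicate block, a repeated quantile step or a median shift, tests over all features, brighter ones or 1 per gene, the mean of a gene's features, and each array left out. The smallest adjusted p of a subunit gene ranged from 0.0954 (array weights) to 0.475 (without untreated replicate 2). The positive values numbered 51 to 65 of the 79, a count added after seeing the data. Over all features 179 were called, 277 with the trended robust prior, 496 with array weights, 13 with ordinary variances and 64 to 131 with an array left out. The split of higher and lower calls was 143 and 36, against 303 and 193 with array weights, 165 and 86 among brighter features and 58 and 6 without untreated replicate 3. With array weights the median was 0.030 for ATP synthase and -0.011 for complex II. The weights were 2.64 for untreated replicate 3, 2.07 for AA2G replicate 3 and 0.57 to 0.74 for the other arrays. With an array left out, medians ran from 0.020 to 0.082 in complex I, -0.001 to 0.021 in complex II, -0.025 to 0.080 in complex III, 0.020 to 0.122 in complex IV and 0.025 to 0.070 in ATP synthase. Of 58 named genes, subunits and others, 42 kept their sign in every alternative and 16 did not. The cause of these moves was not tested.

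The replicate numbers were checked as a pairing. Deviations of same-numbered arrays from their group mean correlated across features at 0.231, 0.224 and 0.017 for numbers 1, 2 and 3. The deviations of a group sum to 0 for each feature, so the third value follows from arrays 1 and 2 and is no separate check. Each array correlated best with its own number. These values do not settle whether the numbers pair the arrays. With the replicate block 155 features were called and, of the other pathway genes, 1 (Slc25a31, limma adjusted p = 0.0238). That gene was also the 1 called with array weights. With the block the SE of Ndufa4l2 was 0.10 in place of 0.34, and that of Cox6b2 0.09 in place of 0.19. Neither gene was called (limma adjusted p = 0.734 and 0.745). If the numbers do pair the arrays, leaving 1 array out also breaks a pair.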
